A study of Rattus norvegicus with 9 samples.

Results

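miR-204-5p and miR-211-5p are related microRNAs (miRNAs, short RNAs that repress the messenger RNAs they pair with) made from introns of the ion channel genes Trpm3 and Trpm1. They were taken by their names (rno-miR-204-5p and rno-miR-211-5p) from a table of mature miRNAs in rat cornea, and are 2 of the 765 miRNAs listed. The table holds 3 small RNA libraries each of allograft, isograft and normal cornea, all labelled as coming from Wistar rats at 6 weeks of age. By the meaning of the terms, donor and recipient differ genetically in an allograft and match in an isograft. The labels do not state the match, the donor strain, the time after surgery or how many corneas a library pools. A library is called by its group and its title number (12, 34 or 56). The labels do not say whether the libraries of a group are from different animals, and the spread between them, on which the p-values rest, may be technical.

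The miR-204 family acts through its seed, the short stretch near the 5′ end that a miRNA pairs with in its targets, so members with the same seed can share targets. miR-204 is abundant in the lens, the ciliary body and the retinal pigment epithelium, where it helps to keep the epithelium differentiated. Meis2, a regulator of eye development, is a known target in medaka fish, and Angpt1, a growth factor for vessels, is a known target in the mouse cornea. miR-211 is best known from pigment cells, where the transcription factor MITF drives it together with Trpm1.

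The mature sequences are shown because the results concern miRNAs that are nearly identical in sequence but not in level. They are from RefSeq (rat assembly GRCr8), are written 5′ to 3′, and have the seed (bases 2 to 8) in capitals.
miR-204-5p: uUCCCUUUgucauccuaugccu
miR-211-5p: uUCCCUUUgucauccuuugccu
miR-204-3p: gCUGGGAAggcaaagggacguu
miR-211-3p: gGCAAGGAcagcaaaggggg
Both 5p arms are 22 bases long and differ at 1 base, A17U, counted from the 5′ end of miR-204-5p, with the base of miR-211-5p given last. Of 693 rat mature miRNAs in that set, these 2 are the only ones with the seed UCCCUUU. The 3p arms, which come from the other side of the same hairpins, have different seeds. The hairpins, with both mature arms in capitals, show where the arms lie.
Mir204 hairpin: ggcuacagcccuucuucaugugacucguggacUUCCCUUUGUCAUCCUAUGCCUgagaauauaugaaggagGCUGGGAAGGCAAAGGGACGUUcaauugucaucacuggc
Mir211 hairpin: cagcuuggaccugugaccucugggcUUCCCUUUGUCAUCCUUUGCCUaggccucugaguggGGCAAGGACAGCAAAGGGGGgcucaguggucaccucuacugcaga
In GRCr8 both hairpins lie on the plus strand of chromosome 1, Mir204 within the span of Trpm3 and Mir211 within that of Trpm1. How the authors assigned reads that match both 5p arms is not given in the sources used here, so the split between these miRNAs is uncertain. The 3p arms do not share this ambiguity.

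The values are RPM, read numbers scaled to the same total in each library. The unscaled totals, worked out here from the smallest step between RPM values, were between 11001459 and 12153889 reads. Apart from isograft 12, the largest was 11013517, so the other totals were almost the same. The listed miRNAs held between 26.4% and 65.6% of the total. A level of 3 reads, taken here as the limit of detection, was between 0.247 and 0.273 RPM. Tests used limma on log2(RPM + 1) over the 281 miRNAs that reached 5 RPM in 3 or more libraries, with p-values adjusted by the Benjamini-Hochberg method over all 281 and a threshold of 0.05. Isograft 12 had the largest read total. Allograft 34 had the smallest share of reads in listed miRNAs and by far the most miR-486 among allografts (946 RPM, against 15.3 and 13.8 in allografts 12 and 56). miR-486 was read here with red blood cell miRNAs. Of these, miR-451-5p was also highest in allograft 34 among allografts (120 RPM, against 3.82 and 3.27 in allografts 12 and 56). Among muscle miRNAs, miR-206-3p and miR-133a-3p were highest in allograft 34, while miR-1b and miR-499-5p were lowest there. Main values are therefore also given without isograft 12 and allograft 34. Both 5p arms and miR-204-3p passed this filter, and miR-211-3p did not. In bulk tissue, fewer cells of a type and less of a miRNA per cell cannot be told apart.

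miR-204-5p was an abundant miRNA of the normal cornea and was lower in both kinds of graft. It had 976, 658 and 1926 RPM in allografts, 1914, 3564 and 3059 RPM in isografts, and 4836, 6499 and 6687 RPM in normal corneas. Every graft library was below every normal library, while the highest allograft lay just above the lowest isograft. These values rest on 7240 to 73610 reads a library. By group mean it was the 43rd most abundant miRNA in allografts, the 25th in isografts and the 15th in normal corneas. Its nearest neighbours in that order were miR-103-3p and miR-23b-3p in allografts, miR-30c-5p and let-7b-5p in isografts, and miR-199a-3p and miR-30d-5p in normal corneas, and the libraries of each neighbour overlapped those of miR-204-5p.

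Mean miR-204-5p was 1187 RPM ± 660 in allografts and 6007 ± 1019 in normal corneas (SD, n = 3 each), or 19.8% of the normal mean. Its log2 fold change was -2.47 (SE 0.37, 95% interval -3.23 to -1.70, limma adjusted p = 3.1e-06), the 6th lowest of the 281. The background was high: 24.2% of the miRNAs tested fell in allografts against normal corneas, and 30.2% were lower with no overlap between groups. In isografts the mean was 2846 RPM ± 846, or 47.4% of the normal mean, with a log2 fold change of -1.11 (SE 0.37, 95% interval -1.87 to -0.35, limma adjusted p = 0.031). There 4.63% of the miRNAs tested fell (13 of 281, but 8 without normal 34 and 6 without normal 56) and 11% were lower with no overlap. This isograft call was lost without normal 34 (adjusted p = 0.12), without normal 56 (0.168), with no filter on low values (0.0875) and with a filter of 50 RPM (0.0551).

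Allografts were lower in miR-204-5p than isografts by 1.36 on the log2 scale (log2 fold change -1.36, SE 0.37, limma adjusted p = 0.007), where 21% of the miRNAs tested fell (59 of 281, but 20 without allograft 34 and 114 without isograft 12). Allograft 34, which had the least miR-204-5p and the smallest share of reads in listed miRNAs, carried part of this difference. Without it the log2 fold change was -1.01 and was not past the threshold (adjusted p = 0.0608). Without allograft 34 and isograft 12 together, the log2 fold changes were -2.12 in allografts and -0.85 in isografts, each against normal corneas, and -1.27 in allografts against isografts, all past the threshold (limma adjusted p = 4e-12, 0.013 and 0.00054). Fewer graft libraries of each kind are left in that setting. limma also draws on the spread of all miRNAs tested, so such small p-values do not rest on the replicates of miR-204-5p alone.

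miR-211-5p was rare beside its relative and was lower in allografts, while its difference in isografts did not pass the test. It had 7.72, 4.82 and 13.8 RPM in allografts, 21.0, 30.6 and 20.8 RPM in isografts, and 23.2, 31.7 and 27.5 RPM in normal corneas. All 3 allografts were below the other 6 libraries, while isografts and normal corneas overlapped. The reads behind these values numbered 53 to 152 in allografts, 229 to 337 in isografts and 255 to 349 in normal corneas. By group mean it took place 231 in allografts, 177 in isografts and 161 in normal corneas.

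Mean miR-211-5p was 8.78 RPM ± 4.59 in allografts and 27.5 ± 4.28 in normal corneas (SD, n = 3 each), or 32.0% of the normal mean, with a log2 fold change of -1.64 (SE 0.40, limma adjusted p = 0.0013). Against the isograft mean of 24.1 RPM ± 5.62, allografts were lower by a log2 fold change of -1.44 (SE 0.40, limma adjusted p = 0.0074). No library overlapped in that comparison, where 22.4% of the miRNAs tested were lower without overlap. Without allograft 34 the log2 fold change against isografts was -1.12 (adjusted p = 0.0608). In isografts against normal corneas it was -0.19 (SE 0.40, limma adjusted p = 0.823), with a 95% interval from -1.01 to 0.63, which does not show that the groups were alike. Without allograft 34 and isograft 12 the 3 values were -1.31 (allograft against normal, limma adjusted p = 0.00051), -1.21 (allograft against isograft, adjusted p = 0.0063) and -0.10 (isograft against normal, adjusted p = 0.876). The sign of that small difference turned to 0.10 when each library was scaled to the reads of its listed miRNAs.

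**Figure D1:**
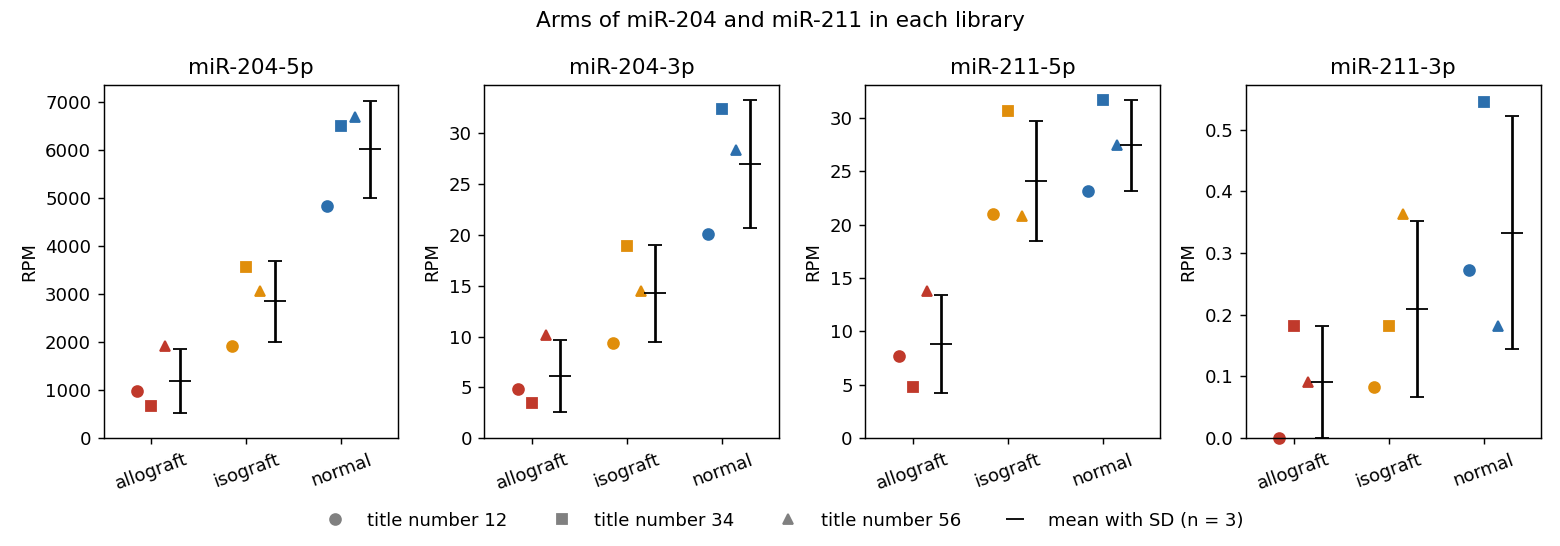
RPM of the 4 mature arms (vertical axes, linear from 0) in allografts, isografts and normal corneas. Points are libraries, with the symbol giving the number in the title, and bars give the mean and SD of 3 libraries. miR-204-5p is between 658 and 1926 RPM in allografts and between 4836 and 6687 RPM in normal corneas, while miR-211-5p in isografts, between 20.8 and 30.6 RPM, overlaps normal corneas.

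The opposite arms can be told apart by sequence, and that of miR-204 was abundant enough to give a second reading of its hairpin. miR-204-3p, the minor arm, had 4.82, 3.45 and 10.2 RPM in allografts, 9.38, 18.9 and 14.4 RPM in isografts, and 20.1, 32.4 and 28.3 RPM in normal corneas. Its libraries lay in the same order within each group as those of miR-204-5p, apart from normal 34 and normal 56. The log2 fold change was -2.05 (SE 0.41, limma adjusted p = 0.00014) in allografts and -0.90 (SE 0.41, adjusted p = 0.141, not past the threshold) in isografts, each against normal corneas, and -1.15 (SE 0.41, adjusted p = 0.0285) in allografts against isografts.

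The balance between the arms of miR-204 overlapped between groups. miR-204-3p made up 0.513% ± 0.0189 of the reads of both arms in allografts, 0.495% ± 0.0295 in isografts and 0.444% ± 0.0458 in normal corneas (SD, n = 3 each). The ranges of isografts and normal corneas overlapped, and the highest normal library, at 0.497%, lay above the lowest allograft, at 0.491%. miR-211-3p was close to the limit of detection throughout, with 0, 2 and 1 reads in allografts, 1, 2 and 4 reads in isografts and 3, 6 and 2 reads in normal corneas. It gives no usable second reading of the miR-211 hairpin.

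Because miR-204-5p fell in isografts and miR-211-5p did not pass the test there, the difference itself was examined as a ratio within each library, which does not depend on the library total. miR-211-5p made up 0.785%, 0.727% and 0.712% of the reads of both miRNAs in allografts, 1.08%, 0.852% and 0.675% in isografts, and 0.477%, 0.485% and 0.410% in normal corneas. All 6 graft libraries were above all 3 normal libraries, and allografts lay within the range of isografts. How reads that match both miRNAs were assigned is not given in the sources used here, so these shares are uncertain. The 95% exact binomial intervals, which cover counting error only, ran from 0.545 to 0.970 over the allografts, from 0.591 to 1.23 over the isografts and from 0.365 to 0.539 over the normal corneas.

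The log2 ratio of miR-211-5p to miR-204-5p was -6.88 ± 0.12 in allografts, -6.80 ± 0.34 in isografts and -7.72 ± 0.13 in normal corneas (SD, n = 3 each). An exact two-sided permutation test over the 3 groups gave p = 0.0286 (0.0857 adjusted over the 3 ratios tested, with 0.00357 the smallest p possible). The adjusted value is not past the threshold. Over 13 alternatives it ran from 0.0214 to 0.25, passing without isograft 56 (0.0214) and without allograft 12 (0.0482) and highest when libraries were permuted within their title number. Even at its highest, in isograft 12, the library with the largest read total, miR-204-5p had 91.2 reads for each read of miR-211-5p, so the summed level of the seed was almost that of miR-204-5p. That sum averaged 1195 RPM ± 664 in allografts, 2870 ± 850 in isografts and 6035 ± 1023 in normal corneas (SD, n = 3 each).

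**Figure D2:**
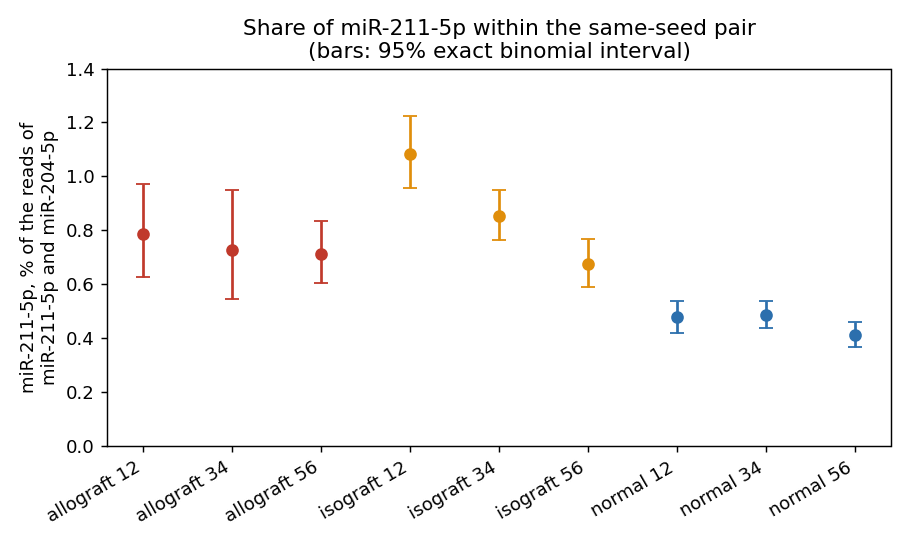
Reads of miR-211-5p as a percentage of the reads of miR-211-5p and miR-204-5p (vertical axis, from 0) in each of the 9 libraries. Bars are 95% exact binomial intervals. The grafts lie between 0.675% and 1.08%, and the normal corneas between 0.410% and 0.485%.

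The miRNAs whose profiles over the 9 libraries were most like each member were found by the root mean square (RMS) difference in log2(RPM + 1), after centring each miRNA on its own mean. This is a description over libraries that share 3 groups, and carries no test. For miR-204-5p the nearest of 280 were miR-200b-3p (RMS 0.14) and miR-200b-5p (0.15), from a family that maintains the epithelial state, then its own opposite arm miR-204-3p (0.19). Next came the keratinocyte miRNA miR-205 (0.28) and miR-200a-3p (0.30), while miR-184, the dominant miRNA of corneal epithelium, was 7th (0.34). The median over all 280 was 1.03.

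For miR-211-5p the nearest were miR-182 (RMS 0.17) and miR-183-5p (0.17), which come from a cluster active in sensory and epithelial cells, followed by miR-320-3p (0.21), miR-125a-5p (0.21) and miR-200a-5p (0.24). The median over all was 0.78. miR-204-5p was only 45th from miR-211-5p (RMS 0.45), and miR-211-5p was 16th from miR-204-5p. The profiles differed in the isografts, where the log2 fold change against normal corneas was -0.33 (SE 0.34) for miR-182 and -0.09 (SE 0.35) for miR-183-5p, but -1.08 (SE 0.35) for miR-200b-3p and -1.17 (SE 0.39) for miR-205. These miRNAs were chosen for their likeness over the same libraries, so the values only describe the profiles.

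**Figure D3:**
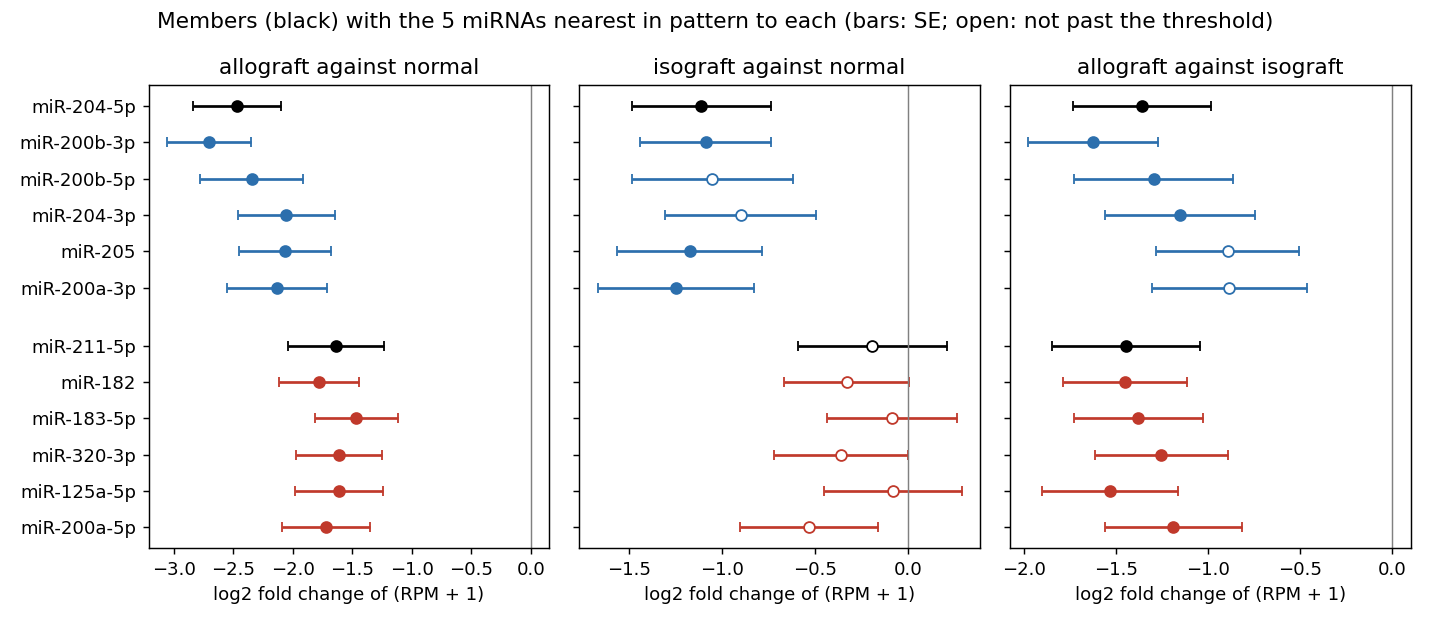
Log2 fold changes of (RPM + 1) (horizontal axes) in the 3 comparisons for miR-204-5p and miR-211-5p (black), each above the 5 miRNAs nearest to it in profile. Bars are SE, and open symbols did not pass the threshold. In isografts against normal corneas the miR-204-5p set lies between -1.25 and -0.90, and the miR-211-5p set between -0.53 and -0.08.

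**Figure D4:**
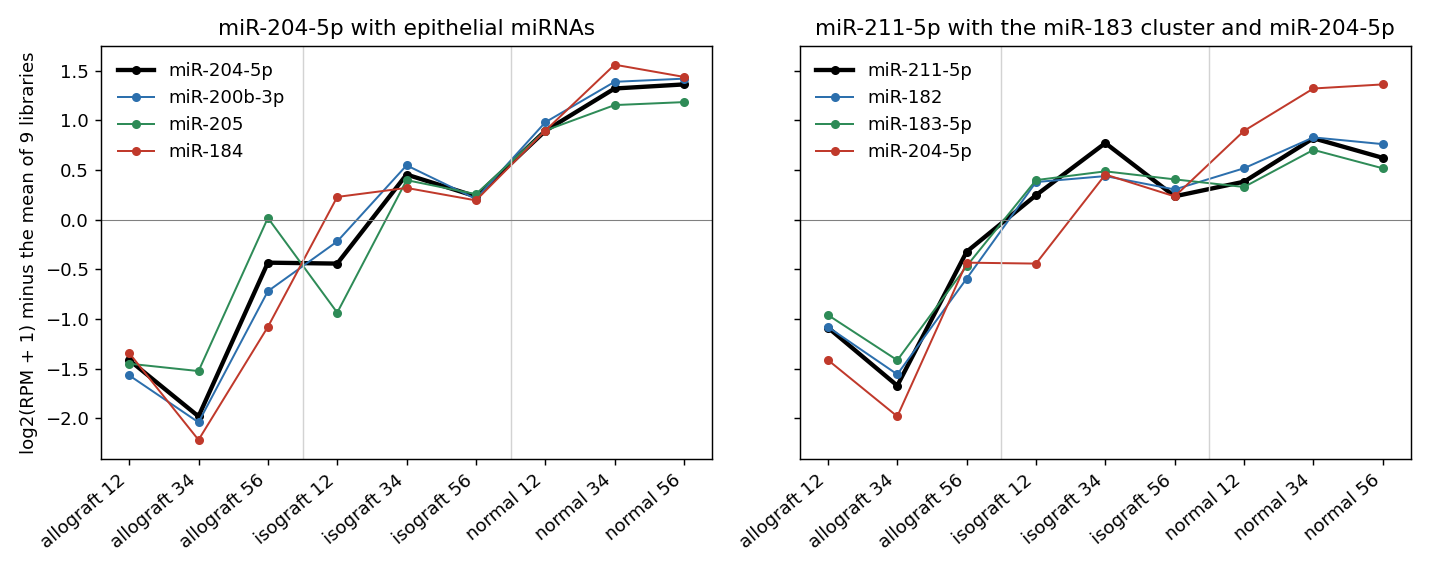
Log2(RPM + 1) minus the mean over the 9 libraries (vertical axis) for miR-204-5p with miR-200b-3p, miR-205 and miR-184 (left), and for miR-211-5p with miR-182, miR-183-5p and miR-204-5p (right). Lines only join the libraries of 1 miRNA and replicates have no order. In isograft 12, miR-204-5p is at -0.44 while miR-184 is at 0.23 and miR-205 at -0.94.

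Set against the major epithelial miRNAs within each library, miR-204-5p showed no shift past the threshold. Its log2 ratio to miR-184 was -5.20 ± 0.36 in allografts, -5.63 ± 0.44 in isografts and -5.57 ± 0.12 in normal corneas (SD, n = 3 each, exact two-sided permutation p = 0.325, adjusted p = 0.325). Its log2 ratio to miR-205 was -2.37 ± 0.28 in allografts, -1.91 ± 0.28 in isografts and -1.97 ± 0.10 in normal corneas (exact permutation p = 0.129, adjusted p = 0.193). The ratio to miR-205 passed without allograft 12 (adjusted p = 0.0482). Isograft 12 stood apart in both, with the lowest ratio to miR-184, at -6.14, and the highest to miR-205, at -1.59.

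Lists of miRNAs of the lens, iris and retinal pigment epithelium and of other cell types were read beside these results. All 6 members of the eye epithelium list (miR-204-5p, miR-211-5p, miR-184, miR-182, miR-183-5p and miR-96-5p) fell in allografts against normal corneas, where 24.2% of all miRNAs tested fell, with a median log2 fold change of -1.71 against -0.14 over all 281. In isografts 2 of the 6, miR-204-5p and miR-184, fell, where 4.63% of all tested did, and the list median was -0.51 against 0.05 over all. In allografts against isografts 5 of 6 fell, where 21% of all tested did. miR-96-5p, at -0.84 (SE 0.41), did not pass the test there, and the medians were -1.41 for the list and -0.29 over all. This list holds both members, and miR-184 is also a corneal epithelial miRNA. miR-182, miR-183-5p and miR-96-5p are from the cluster active in sensory and epithelial cells. The counts therefore do not single out lens, iris or retinal pigment epithelium.

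The corneal and squamous epithelium list had 8 of 9 members lower in allografts (median -1.87) and 4 of 9 lower in isografts (median -0.83), each against normal corneas. Of all miRNAs tested, 24.2% and 4.63% fell in these comparisons. In allografts against isografts 3 of 9 members of the list fell (median -0.92), beside 21% of all miRNAs tested. Its summed level was between 37454 and 91465 RPM in allografts, between 159475 and 194924 RPM in isografts and between 272030 and 421726 RPM in normal corneas. miR-184 is on both this list and the eye epithelium list. It was at 41540 RPM ± 15232 in allografts, 136818 ± 6200 in isografts and 288696 ± 65850 in normal corneas (SD, n = 3 each). In the leukocyte list, miRNAs of white blood cells, miR-223-3p, miR-150-5p, miR-155-5p and miR-342-3p were higher in allografts. The same miRNAs except miR-342-3p were higher in isografts. Of all miRNAs tested, 23.1% rose in allografts and 16.7% in isografts. miR-142-3p and miR-142-5p were below 5 RPM in every normal library. They thus passed the filter through the grafts, where they were high, and are not counted. With them, the list summed to between 2350 and 4096 RPM in allografts. It summed to between 171 and 345 RPM in isografts and between 58.1 and 70.3 RPM in normal corneas. The stroma and fibroblast list had 5 of 8 members higher in allografts and 6 of 8 higher in isografts. Its sums were between 12224 and 23197 RPM in allografts, between 18846 and 38859 RPM in isografts and between 9767 and 12023 RPM in normal corneas. The part of these shifts in cell type markers in the fall of miR-204-5p and miR-211-5p was not tested.

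Lists for muscle, for neuron and retina and for red blood cells were also read, and only some of their members moved. The muscle list, led by miR-1b, summed to between 38.9 and 53.0 RPM in allografts, between 60.2 and 126 RPM in isografts and between 243 and 323 RPM in normal corneas. miR-1-3p was too low to test and was highest in isografts. It had 1.18 to 1.89 RPM there, 0.273 to 0.909 RPM in allografts and 0.454 to 0.818 RPM in normal corneas. Of the 6 members of the muscle list 3 could be tested. miR-1b and miR-499-5p fell in allografts and miR-1b fell in isografts, beside 24.2% and 4.63% of all miRNAs tested. The third, miR-133a-3p, reached 5 RPM in the 3 normal libraries and in only 1 graft, allograft 34. It thus passed the filter through the group where it was high and is not counted. Among allografts, allograft 34 had the most miR-133a-3p (5.18 RPM, against 1.18 and 1.73) and miR-206-3p (6.09 RPM, against 0.36 in each other allograft). It had the least miR-1b and miR-499-5p. The part of muscle miRNAs in the results was not tested. The neuron and retina list had 4 of 8 members abundant enough to test. miR-7a-5p rose in allografts, miR-9a-5p and miR-128-3p did not pass the test in either graft, and miR-138-5p reached 5 RPM in normal corneas only and is not counted. The sums of the list were between 2102 and 2831 RPM in allografts, between 737 and 1088 RPM in isografts and between 624 and 823 RPM in normal corneas. Most of each sum was miR-7a-5p, a miRNA of endocrine cells as well as neurons, at 2441, 1879 and 2507 RPM in allografts, 592, 786 and 623 RPM in isografts and 449, 576 and 529 RPM in normal corneas. miR-124-3p, a defining miRNA of neurons and retina, was between 0.0909 and 0.273 RPM in allografts, between 0.0823 and 0.182 RPM in isografts and between 0.182 and 0.454 RPM in normal corneas, at or near the limit of detection in all 9. The red blood cell list summed to between 17.5 and 1067 RPM in allografts, between 13.6 and 181 RPM in isografts and between 82.3 and 343 RPM in normal corneas. Its highest allograft and isograft values belonged to allograft 34 and isograft 12. Of the 2 members of that list tested, miR-451-5p fell in allografts and in isografts, beside 24.2% and 4.63% of all miRNAs tested. Its libraries overlapped in both comparisons: allograft 34 at 120 RPM and isograft 12 at 69.5 RPM lay above normal 34 at 31.9 RPM. miR-486 did not pass the test in either. No member of the 7 lists was at 0 in all libraries of a group.

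The share of reads in listed miRNAs also varied, and RPM values depend on it. It was 33.9%, 26.4% and 46.3% in allografts, 36.8%, 54.5% and 48.8% in isografts, and 46.6%, 65.6% and 60.7% in normal corneas. Isografts overlapped both other groups, and the difference was not tested. Against the median of all 281 miRNAs, the log2 fold change of miR-204-5p lay -2.33 away in allografts and -1.16 in isografts, and that of miR-211-5p -1.50 away in allografts and -0.24 in isografts, each against normal corneas. Scaling each library to its listed miRNAs moved the median of all in allografts to 0.54, against -0.14 in RPM. On that scale miR-204-5p had a log2 fold change of -1.75 in allografts, or -2.29 relative to the median, and -0.80 in isografts. For miR-211-5p it was -0.98 in allografts, or -1.52 relative to the median, and 0.10 in isografts.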

How the data were processed

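The authors deposited RPM values of 765 mature miRNAs. All 9 columns carry a library title. The submitters' processing notes name bcl2fastq, BWA and rn6. Tool versions, adapter trimming, the miRNA annotation and how ambiguous reads were assigned: not given in the sources used here. RPM values were multiples of a fixed step in each library, and 100% came out as whole reads within 0.1 read. Without molecular identifiers reads are not independent molecules, so intervals and limits describe counting error alone.

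A level of 5 RPM or more in 3 libraries or more was required, which left 281 miRNAs. limma 3.58.1 (R 4.3.3, mean-variance trend) was fitted to log2(RPM + 1) of all 9 libraries with group means and 6 residual degrees of freedom, and checked on simulated data. It draws the variance of each miRNA towards a trend over all 281, so p-values also rest on the spread of the other miRNAs. Fold changes on this scale understate those of low miRNAs. Ratios were compared by exact permutation over 1680 assignments. edgeR 4.0.16 and DESeq2 1.42.0 on the recovered reads served as alternatives and called 193 and 195 miRNAs in allografts against normal corneas. Named miRNAs were both members, their opposite arms, the 5 nearest to each in profile, list members and neighbours in abundance. Members and lists were chosen with earlier results of these data known. RefSeq sequences were matched by name for 690 of 765 miRNAs, in an assembly (GRCr8) other than the authors' build.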

Additional observations from a re-analysis of the deposited data

How the results depend on the processing

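The fall of miR-204-5p and miR-211-5p in allografts against normal corneas kept its direction and call under all 23 and 22 alternatives run, with log2 fold changes from -2.90 to -1.75 and from -2.06 to -0.98. Against isografts both falls lost their call only without allograft 34, and ranged over left-out libraries from -1.78 to -1.01 and from -1.80 to -1.12. miR-204-5p in isografts against normal corneas, at -1.11, lost its call with no filter (adjusted p = 0.0875) and with a filter of 50 RPM (0.0551), at the same fold and an SE of 0.39. Over left-out libraries it ranged from -1.30 to -0.85, and it lost its call without normal 34 or normal 56. miR-211-5p there, at -0.19, was reversed at 0.10 on the listed sum and ranged from -0.37 to -0.08 over left-out libraries. A filter of 50 RPM removes miR-211-5p. Where no reason is given, the cause was not tested.

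The allograft minus normal difference was 0.83 for the log2 ratio of miR-211-5p to miR-204-5p (0.76 to 0.90 over left-out libraries) and -0.40 for that of miR-204-5p to miR-205 (-0.57 to -0.32).

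miRNAs called numbered 60 in isografts against normal corneas (47 higher, 13 lower), 133 in allografts against normal corneas (65 and 68) and 97 in allografts against isografts (38 and 59). A filter of 50 RPM gave 30, 63 and 44. In the first comparison the median of ratios gave 115 (66 and 49), edgeR 114 (67 and 47), DESeq2 119 (68 and 51), the listed sum 122 and RPM without miR-184 60 (38 and 22). In the second the listed sum gave 142 and 44, and RPM without miR-184 51 and 104. In the third the median of ratios gave 168, edgeR 163, DESeq2 171 and the listed sum 141 (86 and 55). Over left-out libraries counts ran from 42 to 80, 101 to 164 and 52 (without allograft 34) to 147 (without isograft 12).

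Whether the title numbers pair the libraries is not given in the labels. Deviations of same-numbered libraries from their group means correlated between -0.51 and 0.56, with 2 of 9 above 0.1. Only 2 of 9 libraries matched best with their own number. Deviations from a mean of 3 libraries depend on each other and follow shifts of whole libraries, so this check cannot decide on pairing. With the number as a replicate block the counts were 66, 143 and 112, and no call on the members changed. Leaving out isograft 12 and allograft 34 together, chosen after seeing the data, changed no call on the members (miR-204-5p at -0.85, -2.12 and -1.27). Depth limits miR-211-3p, with at most 6 reads in a library.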
